A study of Sus scrofa with 12 samples.

Results

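The expression of 10 genes of the YAP/TAZ pathway was followed in primary porcine arterial endothelial cells (ECs) held under laminar flow. The genes code for the coactivators YAP and TAZ (YAP1 and WWTR1), the DNA-binding partner TEAD1, the inhibitory kinase LATS2, the adaptor proteins AJUBA and AMOTL2, and 4 genes known as YAP/TAZ targets (CCN1, CCN2, ANKRD1 and AXL). They were chosen by symbol from the 21153 genes of the deposited count table, where each of the 10 had 1 row. The rule itself uses no measured value, but the 10 were chosen with earlier results of these data known. ECs of 3 slaughterhouse pigs aged 8 months were kept for 48 h under flow at 2, at 30 or at 80 dyne/cm2, and 12 RNA libraries were sequenced. A single culture of every pig was kept at 2 dyne/cm2 and another at 80 dyne/cm2, whereas 2 were kept at 30 dyne/cm2, called set 1 and set 2 here. No genetic modification or drug is named for any group, and all cultures were grown on gelatin with serum and heparin. As the source vessel the labels give the aorta and the methods the coronary artery.

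Cultures at 2 dyne/cm2 were compared with set 1 and cultures at 80 dyne/cm2 with set 2, always within a pig. The series description gives 2 and 80 dyne/cm2 each a control in its own type of chamber, with its own seeding number, so chamber, cell number and control set cannot be told apart when the 2 controls or the 2 responses are compared. The methods name a single chamber type. The labels do not say outright which set belongs to which condition, and each pig's cultures are numbered in the order 30 (set 1), 2, 30 (set 2) and 80 dyne/cm2. Total counts lay between 29606854 and 41058902 per library. A gene passed the test when its Benjamini-Hochberg adjusted p from edgeR's quasi-likelihood test was under 0.05 over all genes tested, with the pig as a block.

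The Hippo pathway is a kinase cascade that restrains growth. Its kinases STK3 and STK4 activate LATS1 and LATS2, which phosphorylate YAP and TAZ and keep them out of the nucleus, and unphosphorylated YAP and TAZ bind TEAD factors and switch on genes such as CCN1 and CCN2. Several targets, among them LATS2 and AMOTL2, code for proteins that act back on the pathway. In ECs the pathway is known to respond to flow, matrix stiffness and cell density. RNA counts report neither the phosphorylation nor the location of YAP and TAZ.

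At 2 dyne/cm2, 5 of the 10 genes were higher than at 30 dyne/cm2 (WWTR1, LATS2, AJUBA, AMOTL2 and CCN2) and 0 were lower. Over all 11226 genes tested, 13.4% were higher and 12.4% lower. The change was at least 2-fold for 4 of the 10, all but LATS2, against 9.6% of all genes. All 10 log2 fold changes were above 0, with a median of 0.91, against 0.0025 over all genes. Of the 10 genes, 1 passed the test at 80 dyne/cm2, AJUBA, which was lower (4.04% of the 11187 genes tested were lower and 4.36% higher). None of the 10 was both called and changed at least 2-fold at 80 dyne/cm2, against 2.2% of all genes. Of the 10 log2 fold changes there, 9 were below 0, with a median of -0.20 against -0.0058 over all genes. In bulk RNA, a change in the share of cells that express a gene and a change in RNA per cell cannot be told apart.

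**Figure D1:**
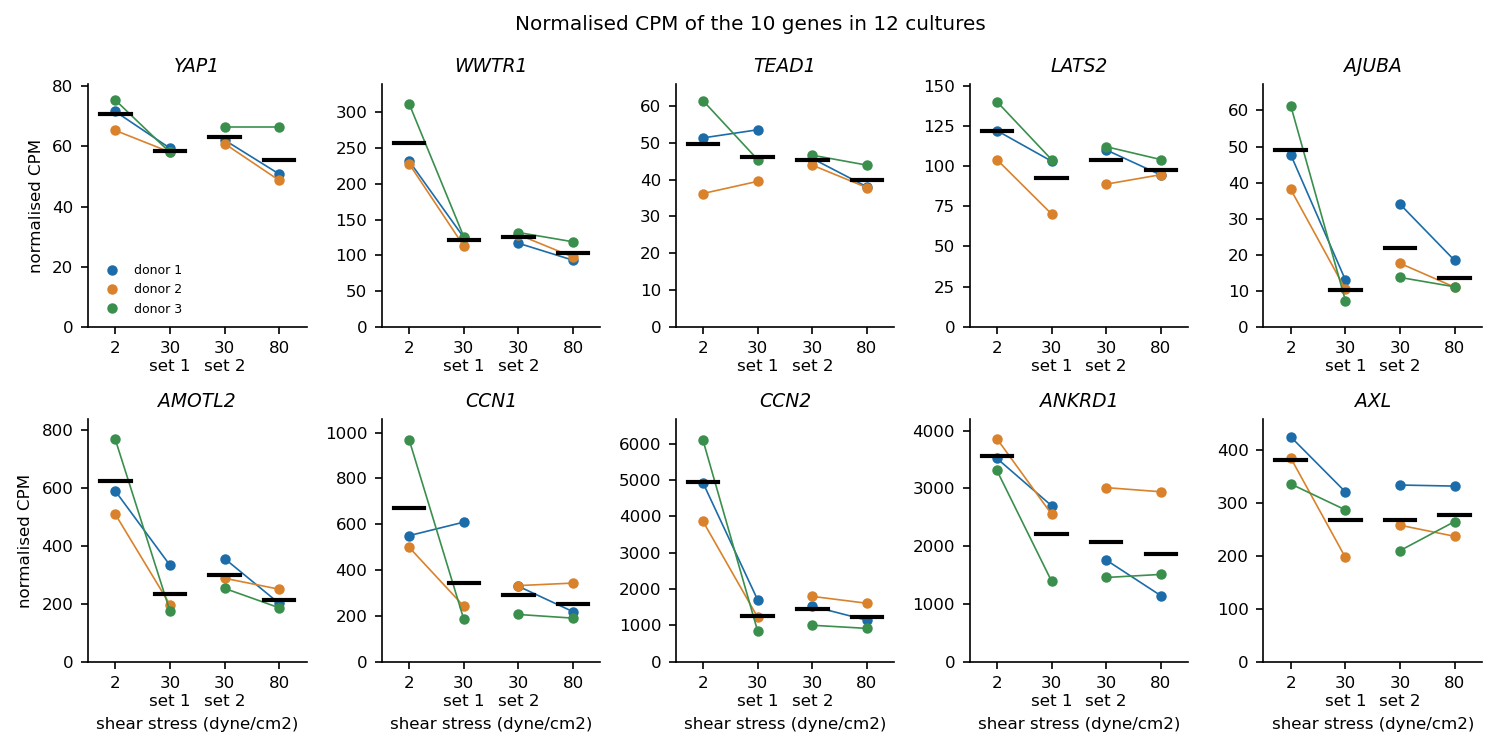
Normalised CPM (linear axis from 0) of the 10 genes in all 12 cultures, by shear stress in dyne/cm2; points are single cultures coloured by donor pig, lines join cultures of a pig within a comparison, and black bars are the means of 3. CCN2 lay between 3863 and 6094 CPM at 2 dyne/cm2 and between 840 and 1798 in the other 9 cultures, whereas TEAD1 overlapped between all groups.

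YAP1 (chr9:32811629-32924926, Sscrofa11.1) codes for YAP, the coactivator that gives the pathway its name. At 2 dyne/cm2 it was at 71.6, 65.3 and 75.4 normalised CPM (counts scaled to a common library size) in donors 1, 2 and 3, and in set 1 at 59.4, 58.1 and 58.0 CPM. All 3 cultures at 2 dyne/cm2 lay above all 3 controls, yet the log2 fold change of 0.28 ± 0.083 (standard error, n = 3 donors) did not pass the test (edgeR, adjusted p = 0.0671). Under 80 dyne/cm2 YAP1 was at 50.8, 48.7 and 66.6 CPM, against 62.1, 60.9 and 66.6 CPM in set 2. Donors 1 and 2 were lower and donor 3 was level, and the log2 fold change of -0.19 ± 0.095 did not pass (edgeR, adjusted p = 0.247).

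WWTR1 (chr13:89742980-89889547) codes for TAZ, the paralogue of YAP. It was at 232, 228 and 312 CPM at 2 dyne/cm2 and at 125, 113 and 126 CPM in set 1. The 2 groups did not overlap, every donor rose, and the log2 fold change was 1.08 ± 0.11 (edgeR, adjusted p = 0.00681). This call held in all 12 alternative analyses, in which the log2 fold change ranged from 0.96 to 1.16. Cultures at 80 dyne/cm2 held WWTR1 at 93.2, 97.7 and 119 CPM against 117, 129 and 132 CPM in set 2. It was lower in every donor, but the log2 fold change of -0.28 ± 0.087 did not pass (edgeR, adjusted p = 0.0917).

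The 2 coactivator transcripts therefore stood in different proportions at 2 dyne/cm2. There were 3.24, 3.50 and 4.14 WWTR1 reads per YAP1 read in donors 1, 2 and 3 at 2 dyne/cm2. In the other 9 cultures this ratio lay between 1.79 and 2.17. The mean within-donor change of the log2 ratio was 0.80 (SD 0.16, n = 3) at 2 dyne/cm2 and -0.09 (SD 0.058, n = 3) at 80 dyne/cm2. The lengths of the 2 transcripts were not used, so the ratio compares cultures and does not say which protein is more abundant.

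**Figure D2:**
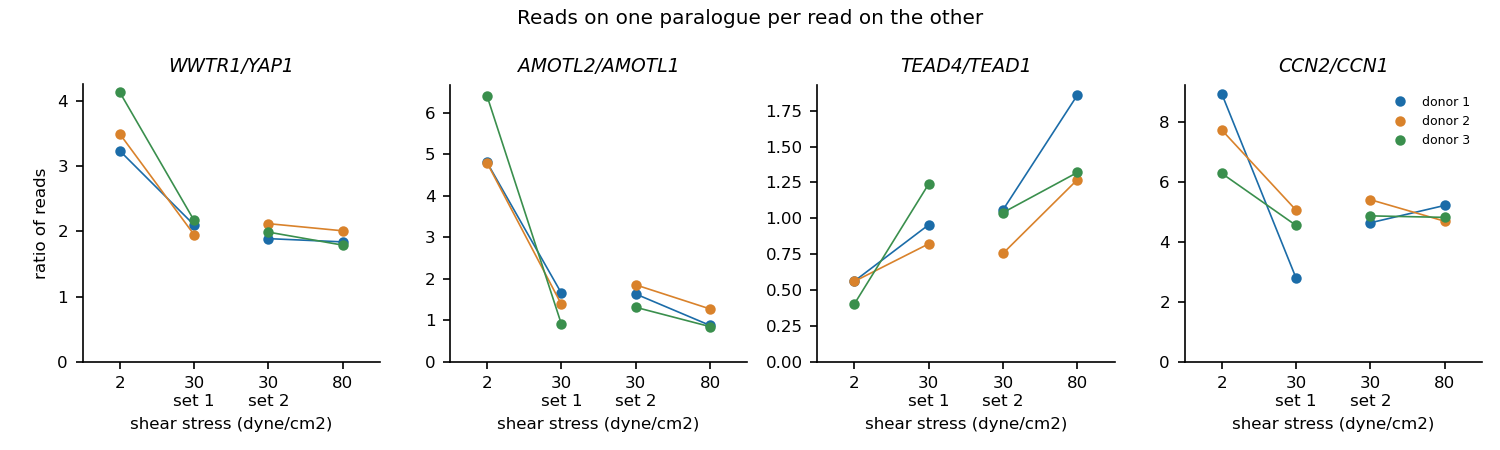
Reads on one paralogue per read on its relative (linear axis from 0) in the 12 cultures, by shear stress in dyne/cm2; points are single cultures coloured by donor, and lines join cultures of a pig within a comparison. WWTR1 per YAP1 and AMOTL2 per AMOTL1 were highest in the 3 cultures at 2 dyne/cm2, and TEAD4 per TEAD1 was lowest there.

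TEAD1 (chr2:46396490-46670619), a DNA-binding partner through which YAP and TAZ reach their genes, was at 51.3, 36.2 and 61.4 CPM at 2 dyne/cm2 and at 53.5, 39.5 and 45.4 CPM in set 1. Donors 1 and 2 were slightly lower and donor 3 was higher. Its log2 fold change was 0.087 with a 95% confidence interval from -0.26 to 0.43 (edgeR, adjusted p = 0.649). TEAD1 was at 38.0, 37.8 and 43.9 CPM at 80 dyne/cm2 against 45.7, 43.9 and 46.6 CPM in set 2. That of 80 dyne/cm2 was -0.18, with an interval from -0.38 to 0.023 (edgeR, adjusted p = 0.240).

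Of 7 other TEAD and vestigial-like (VGLL) genes, 5 were tested, VGLL1 had no row that could be matched and VGLL2 was below the filter. VGLL proteins are cofactors that bind TEAD in the place of YAP and TAZ. At 2 dyne/cm2, 1 of the 5 was higher, VGLL3, and 1 was lower, TEAD4, and both passed in the opposite direction at 80 dyne/cm2. VGLL3 was at 30.8, 14.7 and 44.9 CPM at 2 dyne/cm2 against 9.43, 2.44 and 6.71 CPM in set 1, and the groups did not overlap. Its log2 fold change was 2.33 ± 0.24 (edgeR, adjusted p = 0.00681) at 2 dyne/cm2 and -0.80 ± 0.19 (edgeR, adjusted p = 0.0452) at 80 dyne/cm2. TEAD4 was at 28.8, 20.3 and 24.8 CPM at 2 dyne/cm2 against 51.1, 32.4 and 56.3 CPM in set 1, and again the groups did not overlap. Its log2 fold change was -0.89 ± 0.13 (edgeR, adjusted p = 0.0125), and 0.46 ± 0.092 (edgeR, adjusted p = 0.0275) at 80 dyne/cm2. Without the donor block neither gene passed at 2 dyne/cm2 (edgeR, adjusted p = 0.0592 for VGLL3 and 0.0595 for TEAD4). Neither passed without the block at 80 dyne/cm2, where 0 genes were called in all. Both calls at 80 dyne/cm2 were also lost without donor 2 (edgeR, adjusted p = 0.0985 for VGLL3 and 0.107 for TEAD4) and without donor 3 (0.115 and 0.0924). They were lost against set 1 as well, where the log2 fold change of VGLL3 was -0.12 and that of TEAD4 0.37.

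TEAD4 reads per TEAD1 read were 0.562, 0.560 and 0.403 at 2 dyne/cm2 and 0.955, 0.822 and 1.24 in set 1. Under 80 dyne/cm2 they were 1.86, 1.27 and 1.32, against 1.06, 0.756 and 1.04 in set 2. The ratio fell in every donor at 2 dyne/cm2 and rose in every donor at 80 dyne/cm2, and the groups of each comparison did not overlap.

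LATS2 (chr11:1225523-1265970), which phosphorylates YAP and TAZ and is itself a known target of them, was at 122, 104 and 140 CPM at 2 dyne/cm2 and at 103, 70.2 and 104 CPM in set 1. It rose in every donor, although donor 2 at 2 dyne/cm2 lay at the level of the controls of donors 1 and 3. LATS2's log2 fold change of 0.41 ± 0.096 passed (edgeR, adjusted p = 0.0360), but not when any 1 donor was left out, when adjusted p was 0.0776, 0.0989 and 0.100 without donors 1, 2 and 3. Against set 2 it was 0.23 (edgeR, adjusted p = 0.0649), and without the donor block adjusted p was 0.215. LATS2 was at 94.4, 94.6 and 104 CPM at 80 dyne/cm2 against 110, 88.7 and 112 CPM, a log2 fold change of -0.070 with an interval from -0.29 to 0.15.

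Of 13 other genes of the kinase cascade (STK3, STK4, LATS1 and their cofactors and upstream kinases), 12 were tested, 2 were higher and 0 lower at 2 dyne/cm2, and 0 passed at 80 dyne/cm2. The median log2 fold changes of the 12 were 0.016 and -0.034. The 2 higher genes were WWC2, of the KIBRA family of LATS-activating scaffolds, with a log2 fold change of 1.13 ± 0.21 (edgeR, adjusted p = 0.0209), and STK4, the kinase also called MST1, with 0.57 ± 0.083 (edgeR, adjusted p = 0.0129). WWC2 did not pass without the donor block (edgeR, adjusted p = 0.0658) or against set 2 (0.0560), and STK4 did not pass without donor 1 (0.0710). LATS1, named after its values were seen as the paralogue of LATS2, had a log2 fold change of 0.20 that did not pass (edgeR, adjusted p = 0.197).

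AJUBA (chr7:76063009-76072884), a LIM protein of junctions that binds and inhibits LATS kinases, was the least expressed of the 10 in raw counts, with 244 counts in its lowest library. It was at 47.7, 38.1 and 61.3 CPM at 2 dyne/cm2 and at 13, 10.4 and 7.30 CPM in set 1. The groups were far apart and every donor rose, with a log2 fold change of 2.26 ± 0.27, or 4.80-fold (edgeR, adjusted p = 0.00887). AJUBA also differed between the 2 control sets, with 34.0, 17.6 and 13.7 CPM in set 2. Set 2 was above set 1 in every donor, by a log2 fold change of 1.03 ± 0.14 that missed the threshold (edgeR, adjusted p = 0.0741). Against set 2 the log2 fold change at 2 dyne/cm2 was 1.24 and no longer passed (edgeR, adjusted p = 0.0511).

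At 80 dyne/cm2 AJUBA was at 18.4, 11.0 and 11.1 CPM, lower than set 2 in every donor, although the groups overlapped. This log2 fold change was -0.62 ± 0.13 (edgeR, adjusted p = 0.0318). Against set 1 the sign turned, with a log2 fold change of 0.40 ± 0.16 (edgeR, adjusted p = 0.349). The call was also lost without donor 2 (edgeR, adjusted p = 0.105), without donor 3 (0.0690), without the donor block (0.689), with the spread taken from all 12 libraries (0.182) and against both sets (0.767).

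AMOTL2 (chr13:75490936-75507360), a motin that holds YAP at junctions and is a known YAP target, was at 589, 509 and 767 CPM at 2 dyne/cm2 and at 333, 197 and 175 CPM in set 1. The groups did not overlap and every donor rose. AMOTL2 had a log2 fold change of 1.44 ± 0.26 (edgeR, adjusted p = 0.0207), which was 1.48 without donor 2 and then did not pass (edgeR, adjusted p = 0.0684). AMOTL2 was at 201, 250 and 186 CPM at 80 dyne/cm2 against 356, 288 and 253 CPM in set 2. It was the 1 gene of the 10 with all cultures at 80 dyne/cm2 below all controls, as 7.34% of all genes were. Its log2 fold change of -0.48 ± 0.13 missed the threshold (edgeR, adjusted p = 0.0623) and was -0.089 against set 1.

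The other 2 motins, AMOT and AMOTL1, fell at 2 dyne/cm2, with log2 fold changes of -0.69 ± 0.13 (edgeR, adjusted p = 0.0233) and -0.61 ± 0.096 (edgeR, adjusted p = 0.0155). AMOTL2 reads per AMOTL1 read were 4.80, 4.79 and 6.40 at 2 dyne/cm2, and between 0.844 and 1.85 in the other 9 cultures. The lowest ratio at 2 dyne/cm2 was thus well above the highest ratio elsewhere. Of the 8 further junctional and LIM proteins tested, which include AMOT and AMOTL1, 1 was higher at 2 dyne/cm2 (FRMD6, a FERM protein, with a log2 fold change of 0.66 ± 0.093 and an edgeR adjusted p of 0.0123), 2 were lower and 0 passed at 80 dyne/cm2. The medians of the 8 were -0.021 and 0.16. Without the donor block AMOT, AMOTL1 and FRMD6 did not pass (edgeR, adjusted p = 0.0550, 0.0502 and 0.0915). AMOTL1 also missed the threshold without donor 1 (edgeR, adjusted p = 0.0637) and AMOT without donor 2 (0.0651).

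Of the target genes, CCN2 (chr1:31674398-31677697), which codes for connective tissue growth factor, was at 4923, 3863 and 6094 CPM at 2 dyne/cm2 and at 1701, 1223 and 840 CPM in set 1. The lowest culture at 2 dyne/cm2 stood above the highest of all other cultures, and every donor rose. CCN2 had a log2 fold change of 2.01 ± 0.31, or 4.04-fold (edgeR, adjusted p = 0.0147), and it passed in all 12 alternative analyses (1.61 to 2.26). CCN2 was at 1141, 1609 and 917 CPM at 80 dyne/cm2 against 1528, 1798 and 1003 CPM, lower in every donor. A log2 fold change of -0.23 did not pass (edgeR, adjusted p = 0.272), and its interval ran from -0.50 to 0.051.

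CCN1, the secreted matricellular protein formerly called CYR61, had the widest spread between donors at 2 dyne/cm2. It was at 550, 499 and 968 CPM at 2 dyne/cm2 and at 609, 242 and 185 CPM in set 1. Donor 1 was lower at 2 dyne/cm2 while donors 2 and 3 were higher, and the groups overlapped. The log2 fold change of 1.10 ± 0.50 did not pass (edgeR, adjusted p = 0.157), with an interval from -0.17 to 2.37. The control of donor 1 was at 609 CPM in set 1 and at 329 CPM in set 2, which was at 329, 332 and 206 CPM. Without donor 1 the log2 fold change was 1.72 and passed (edgeR, adjusted p = 0.0192), and against both sets it was 1.19 (edgeR, adjusted p = 0.0370), the 2 of 12 alternative analyses in which CCN1 passed. Without donor 2 it was 1.12 (edgeR, adjusted p = 0.305) and without donor 3 it was 0.46 (0.363). CCN1 was at 218, 343 and 190 CPM at 80 dyne/cm2, a log2 fold change of -0.21 (edgeR, adjusted p = 0.356).

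ANKRD1 (chr14:102603777-102612857), a nuclear ankyrin-repeat protein, was at 3518, 3858 and 3309 CPM at 2 dyne/cm2 and at 2699, 2553 and 1394 CPM in set 1. All cultures at 2 dyne/cm2 were above all controls, with a log2 fold change of 0.74 ± 0.21 that narrowly missed the threshold (edgeR, adjusted p = 0.0561). Under 80 dyne/cm2 it was at 1143, 2940 and 1510 CPM against 1759, 3012 and 1457 CPM in set 2. Only donor 1 was clearly lower there, and the log2 fold change of -0.19 did not pass (edgeR, adjusted p = 0.493).

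AXL (chr6:49245802-49277917), a receptor tyrosine kinase, was at 425, 385 and 336 CPM at 2 dyne/cm2 and at 321, 197 and 287 CPM in set 1. The groups did not overlap, and the log2 fold change of 0.54 ± 0.17 did not pass (edgeR, adjusted p = 0.0727). ANKRD1 and AXL both passed at 2 dyne/cm2 in DESeq2 (adjusted p = 0.000999 and 0.0152) and against set 2 (edgeR, adjusted p = 0.0383 and 0.0211). AXL was at 332, 237 and 265 CPM at 80 dyne/cm2 against 334, 258 and 210 CPM, the 1 gene of the 10 with a log2 fold change above 0 (0.081, interval from -0.18 to 0.34). In all, 7 of the 10 genes had every culture at 2 dyne/cm2 above every control, against 18.3% of all genes. The exceptions were TEAD1, CCN1 and LATS2.

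**Figure D3:**
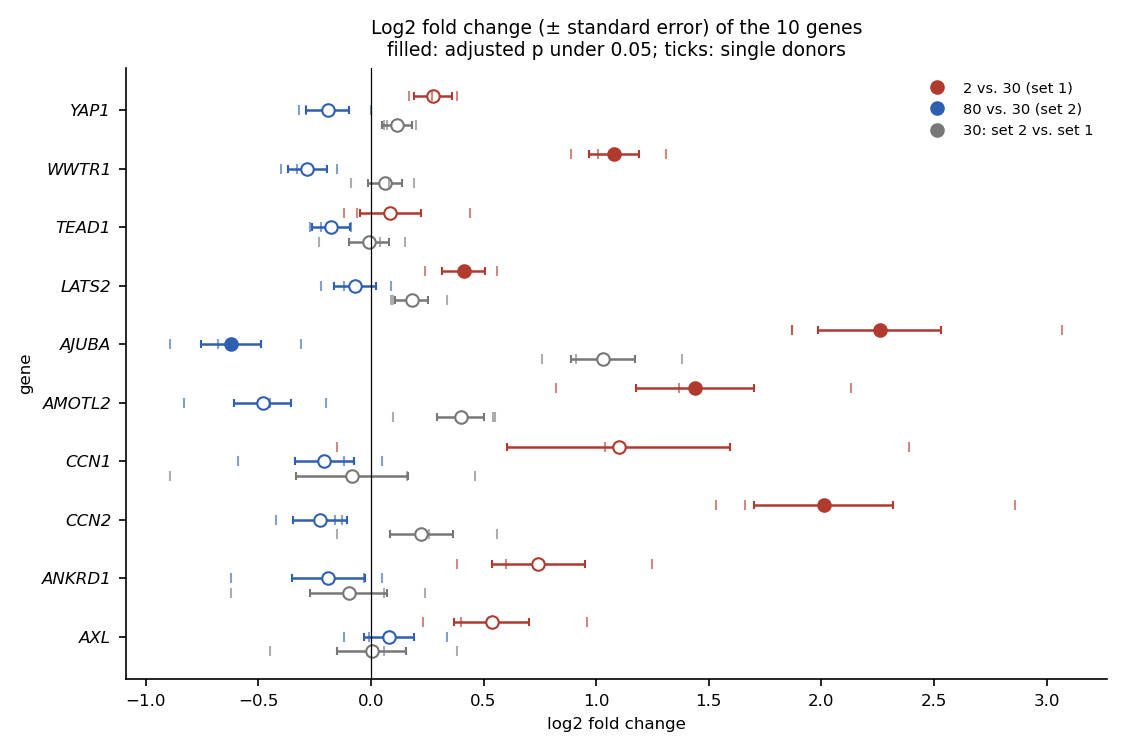
Log2 fold changes of the 10 genes (horizontal axis) at 2 vs. 30 dyne/cm2 (red), at 80 vs. 30 dyne/cm2 (blue) and between the control sets (grey), with standard errors of the fit as bars; filled circles passed the test, and ticks are the 3 donors. At 2 dyne/cm2 values ran from 0.087 (TEAD1) to 2.26 (AJUBA), at 80 dyne/cm2 from -0.62 (AJUBA) to 0.081 (AXL), and AJUBA had the largest difference between the control sets, 1.03.

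The difference between the 2 responses was tested in a model over 12 libraries. The log2 fold change at 2 dyne/cm2 exceeded that at 80 dyne/cm2 for all 10 genes, and the difference passed for 6, against 37.1% of all genes tested in either direction. The 6 were AJUBA with a difference of 2.97 ± 0.38, CCN2 with 2.29 ± 0.41, AMOTL2 with 1.92 ± 0.34, WWTR1 with 1.37 ± 0.13, LATS2 with 0.48 ± 0.14 and YAP1 with 0.47 ± 0.13 (edgeR, adjusted p = 0.000486, 0.00247, 0.0022, 0.000133, 0.0235 and 0.0182). YAP1 is thus called for the difference although neither of its single comparisons passed. With the control sets exchanged 3 of the 10 passed, WWTR1, CCN2 and AMOTL2. The differences of AJUBA, YAP1 and LATS2 were then 0.90, 0.25 and 0.14 and did not pass (edgeR, adjusted p = 0.121, 0.196 and 0.528). Calls were also lost for YAP1 without donor 1 (edgeR, adjusted p = 0.143) or donor 2 (0.0872), and for LATS2 without donor 1 (0.105) or donor 3 (0.180). The differences of TEAD1, CCN1, ANKRD1 and AXL did not pass.

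Between the control sets 0 of the 10 genes passed, as did 0.0179% of all genes (2 of 11163, and 2146 at an unadjusted p under 0.05). DESeq2 called 2 of the 10 there, AJUBA and AMOTL2, and 476 genes in all. AMOTL2 was higher in set 2 than in set 1 in every donor, by a log2 fold change of 0.40 ± 0.10 that did not pass (edgeR, adjusted p = 0.157).

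Of 16 further genes commonly listed as YAP/TAZ targets, 12 were tested, 2 had no matched row and 2 were below the filter. At 2 dyne/cm2, 3 were higher and 2 lower, with a median log2 fold change of 0.22, and at 80 dyne/cm2, 1 was higher and 2 lower, with a median of 0.023. GADD45B, a stress-induced growth regulator, rose by a log2 fold change of 1.24 ± 0.18 (edgeR, adjusted p = 0.0126), and CRIM1, a transmembrane protein that binds bone morphogenetic proteins, by 0.82 ± 0.18 (edgeR, adjusted p = 0.0317). RBMS3, an RNA-binding protein that is named after its values were seen, rose by 0.68 ± 0.097 (edgeR, adjusted p = 0.0125). The 2 lower genes were NT5E, the ectoenzyme that makes adenosine, with a log2 fold change of -1.36 ± 0.33 (edgeR, adjusted p = 0.0395), and FJX1, a homologue of a Drosophila Golgi kinase, with -0.85 ± 0.097 (edgeR, adjusted p = 0.00823). NT5E was low, with group means of 0.984 CPM at 2 dyne/cm2 and 2.76 CPM in set 1. Without the donor block NT5E, FJX1 and RBMS3 did not pass (edgeR, adjusted p = 0.0693, 0.195 and 0.195). Against set 2 NT5E, FJX1 and CRIM1 did not pass (edgeR, adjusted p = 0.0844, 0.286 and 0.0648). With a donor left out, CRIM1 did not pass without donor 1 (edgeR, adjusted p = 0.0526) or donor 2 (0.0747), nor RBMS3 without donor 1 (0.0645).

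At 80 dyne/cm2 NT5E rose by a log2 fold change of 1.08 ± 0.22 (edgeR, adjusted p = 0.0293), which was 0.41 against set 1 and did not pass there (0.535), nor without donor 2 (0.133) or donor 3 (0.199). NT5E did not pass without the donor block either, where 0 genes were called. RBMS3 fell by 0.48 on the log2 scale (edgeR, adjusted p = 0.0442), and CCDC80, a matrix protein also named after its values were seen, fell by 0.56 (edgeR, adjusted p = 0.0127). Without donor 3 neither RBMS3 nor CCDC80 passed (edgeR, adjusted p = 0.161 and 0.129), nor did RBMS3 without donor 2 (0.135). Against set 1 neither passed (edgeR, adjusted p = 0.412 and 0.137), nor without the donor block (0.600 and 0.765). The genes of this list therefore moved in both directions at each shear stress, and the log2 fold change of FJX1 between the control sets was -0.66, which missed the threshold (edgeR, adjusted p = 0.0741).

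**Figure D4:**
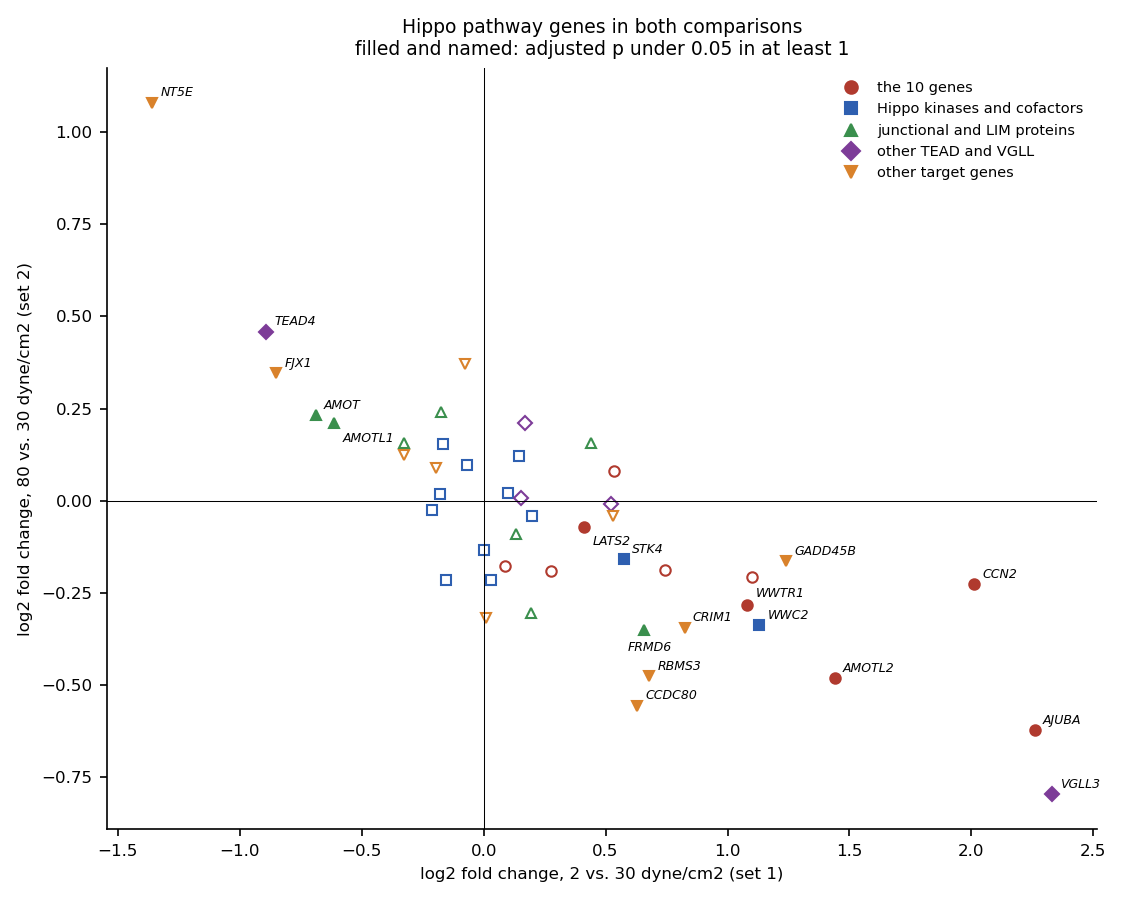
Log2 fold change at 2 vs. 30 dyne/cm2 (horizontal axis) against that at 80 vs. 30 dyne/cm2 (vertical axis) for every tested gene of the pathway lists; filled and named symbols passed the test in at least 1 comparison, and marker shape gives the list. VGLL3 and AJUBA lie at the lower right (2.33 and -0.80, 2.26 and -0.62), and NT5E and TEAD4 at the upper left (-1.36 and 1.08, -0.89 and 0.46).

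How alike the 10 genes were was described by Pearson's r of log2 CPM centred on each donor over the 12 libraries. The libraries share donors and shear stress, so these r describe the cultures and carry no test. Over the 45 pairs the median r was 0.78, and 20 pairs reached 0.8. WWTR1 with CCN2, and CCN2 with AMOTL2, had the highest r (0.97 each), and TEAD1 with AXL had the lowest (0.18). TEAD1 was in each of the 3 pairs under 0.5, with LATS2, AJUBA and AXL.

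**Figure D5:**
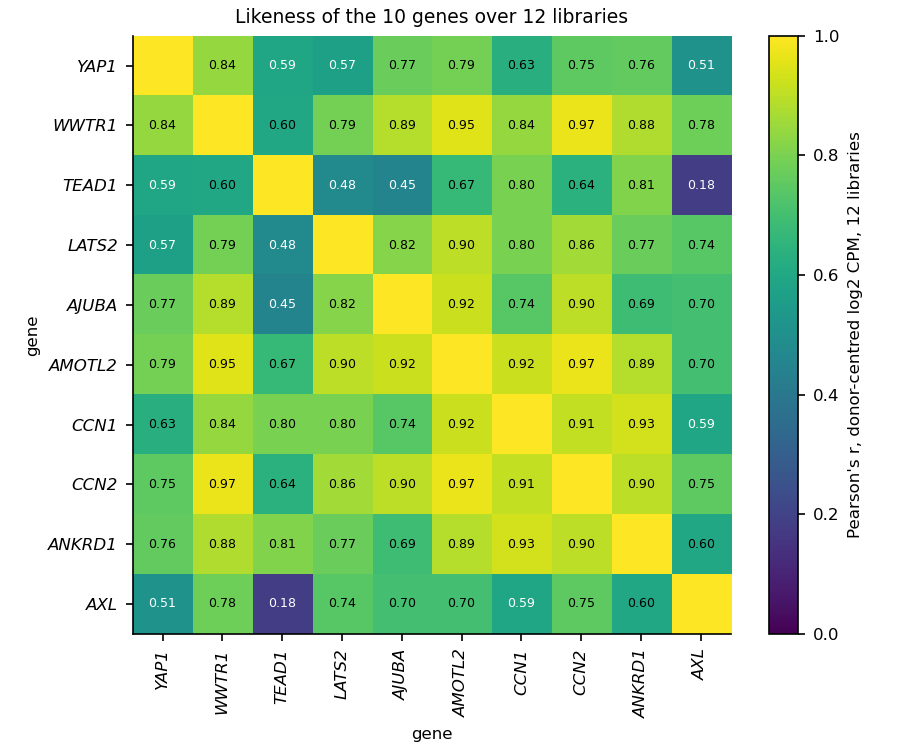
Pearson's r of donor-centred log2 CPM over 12 libraries for each pair of the 10 genes (colour from 0 to 1, values printed). AMOTL2, CCN2 and WWTR1 had r of at least 0.95 with each other, whereas the TEAD1 row runs from 0.18 to 0.81.

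Among 9676 genes with a symbol and at least 50 counts on average, those most like CCN2 on the same scale were PIM3 (r = 0.993), NRG1 (0.993), FZD4 (0.992), SIN3B (0.984) and HHEX (0.983). PIM3, a serine/threonine kinase, and NRG1, a ligand of ERBB receptors, rose at 2 dyne/cm2 by log2 fold changes of 2.45 and 2.09 (edgeR, adjusted p = 0.00623 and 0.0118). Among those most like CCN1 were BCL10 (0.957), SLC45A4 (0.941), CLIP4 (0.940) and HHEX (0.932). Of these 4, HHEX, a homeobox factor, passed at 2 dyne/cm2, with a log2 fold change of 0.73 (edgeR, adjusted p = 0.0325), and it stands in both lists.

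Other markers moved with shear stress in the same cultures. All 4 flow-responsive genes with a row fell at 2 dyne/cm2, among them KLF2, a transcription factor induced by flow, with a log2 fold change of -4.35 (edgeR, adjusted p = 0.00906), and KLF2 and NOS3 rose at 80 dyne/cm2 (0.44 and 0.74, edgeR, adjusted p = 0.0428 and 0.0260). KLF4 and CYP1B1 had log2 fold changes of 0.32 and -0.83 there that did not pass (edgeR, adjusted p = 0.109 and 0.125). The 7 endothelial markers with a row (of 9 listed) summed to 4295 to 5260 CPM at 2 dyne/cm2, 6222 to 7215 CPM in set 1, 5861 to 6835 CPM in set 2 and 7680 to 7738 CPM at 80 dyne/cm2. At 2 dyne/cm2, 3 of the 7 fell, TEK, EMCN and PECAM1, with log2 fold changes of -2.95, -1.25 and -0.71, and at 80 dyne/cm2 EMCN and KDR rose by 2.33 and 0.49. Without the donor block none of the marker rises at 80 dyne/cm2 passed, since 0 genes were called there. From set 1 to set 2 the log2 fold changes of NOS3, EMCN, KDR and KLF2 were -0.41, -0.75, -0.38 and 0.079, and none passed. The 10 smooth muscle and fibroblast markers summed to 14.8 to 72.6 CPM at 2 dyne/cm2, 4.67 to 21.5 CPM in set 1, 3.88 to 18.7 CPM in set 2 and 3.78 to 12.6 CPM at 80 dyne/cm2. Of the 4 that passed the filter at 2 dyne/cm2, PDGFRB and PDGFRA rose (2.41 and 1.09 on the log2 scale), while COL1A1 (1.44) and LUM (-0.11) did not pass (edgeR, adjusted p = 0.0590 and 0.763). DCN was below the filter, at 4.55, 1.56 and 0.638 CPM at 2 dyne/cm2 and at 0.442, 0.417 and 0.239 CPM in set 1, higher in every donor. The contractile markers ACTA2, TAGLN and CNN1 stayed at or below 0.437, 0.489 and 0.149 CPM, DES was at 0 counts in all libraries and MYH11 was below the filter, under an identifier that may belong to another myosin gene.

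COL1A1 made up most of the highest sum, with 49.3 CPM in donor 1 at 2 dyne/cm2 against 2.67 and 2.55 CPM in donors 2 and 3, whereas PDGFRB was highest in donor 3 (7.11 CPM). Without donor 1 the log2 fold changes at 2 dyne/cm2 were 1.16 for WWTR1, 2.26 for CCN2, 1.75 for AMOTL2 and 2.47 for AJUBA, and all 4 passed (edgeR, adjusted p = 0.00737, 0.0136, 0.00604 and 0.0049), whereas LATS2 did not (0.50, adjusted p = 0.0776). The 5 leukocyte markers summed to at most 6.83 CPM in any library. The part that these markers play in the values of the 10 genes was not tested. Leaving out donor 1 does not test it, since PDGFRB rose at 2 dyne/cm2 in every donor (2.01, 2.32 and 2.89 on the log2 scale). Without donor 2 AMOTL2 did not pass (edgeR, adjusted p = 0.0684).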

How the data were processed

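RNA of 12 cultures was sequenced as single-end reads on a HiSeq2000. Whether counting used strand is not given in the sources used here. Per the labels, the authors used STAR 2.4 to map reads to Sscrofa11.1, keeping uniquely mapped reads alone, and featureCounts 1.4.6 to count reads on the union of a gene's exons. The deposited values are raw counts per gene, not normalised. Discarding multi-mapping reads lowers counts of genes with near-identical copies.

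Symbols were matched by Ensembl identifier, which named 14572 of 21153 genes (68.9%), and 3718 genes were at 0 in all libraries. Gene positions come from a RefSeq table of the same assembly, in which CCN1 was not matched. The counts were fitted in edgeR 4.0.16 under R 4.3.3, with TMM normalisation, the quasi-likelihood test and Benjamini-Hochberg adjustment over all genes tested. Genes needed 1 CPM or more in 3 or more of the compared libraries. The pig entered as a block, since the source names give same-numbered cultures the same pig. Deviations from group means correlated at 0.69 to 0.88 in 18 same-numbered pairs of libraries and at -0.55 to -0.19 in 36 other pairs, over 11568 genes. Each group holds 1 culture from each of 3 pigs. A standard error is the log2 fold change divided by the square root of F, and intervals are 95%. CPM are scaled by TMM factors over 12 libraries. The procedure was tested on simulated data. The thresholds (adjusted p under 0.05, and 2-fold where said) are those of the study, whose filter of 1 RPKM was replaced because the table gives no gene lengths.

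The 10 genes and the pathway and marker lists were chosen with earlier results of these data known. From each list other than the 10, up to 4 genes with the largest change past the threshold and at least 50 counts on average are named, and for CCN1 and CCN2 the 5 most similar genes, of which 1 is not reported here. Alternatives were relative log expression normalisation, DESeq2 1.42.0, 3 other filters, no donor block, the spread from all 12 libraries, the other or both sets at 30 dyne/cm2, and each donor left out.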

Additional observations from a re-analysis of the deposited data

Results flagged for a closer look

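The log2 fold change at 2 dyne/cm2 differed from that at 80 dyne/cm2, by an interaction term in edgeR with Benjamini-Hochberg adjustment, for the following genes. The difference (2 minus 80 dyne/cm2) passed for 6 of the 10 YAP/TAZ genes, at 0.47 for YAP1, 1.37 for WWTR1, 2.29 for CCN2, 1.92 for AMOTL2, 2.97 for AJUBA and 0.48 for LATS2. Over all 11568 genes tested, the difference passed for 37.1%. In the cascade it was 0.74 for STK4 and 1.5 for WWC2. Among junctional proteins it was -0.91 for AMOT, -0.81 for AMOTL1 and 1.02 for FRMD6. It was -1.35 for the TEAD factor TEAD4 and 3.15 for the TEAD cofactor VGLL3. Among other targets it was 1.19 for CRIM1, -1.20 for FJX1, 1.4 for GADD45B, 1.16 for RBMS3, 1.25 for CCDC80 and -2.45 for NT5E. With the control sets exchanged, the difference of FJX1 was 0.14 and its sign turned, and those of AJUBA (0.90), YAP1 (0.25), LATS2 (0.14), STK4 (0.31), GADD45B (0.66) and NT5E (-1.10) no longer passed. Without the donor block 9 of the differences no longer passed, and without donors 1, 2 and 3 it was 3, 3 and 2 of them. The difference of CCDC80 was 0.50, 0.71 and 2.43 in donors 1, 2 and 3 (edgeR, adjusted p = 0.0461). Each response was measured against its own control set, so the chamber and the control cannot be told apart from the shear stress in these differences.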

How the results depend on the processing

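Relative log expression normalisation, filterByExpr and a minimum of 10 counts in every library changed no call at 2 or 80 dyne/cm2, or for the difference, of the 10 genes or of the genes named from the 4 other pathway lists. The main fits called 2895, 940 and 4294 genes at 2 dyne/cm2, at 80 dyne/cm2 and for the difference, and 2 between the control sets. The unpaired fit without the donor (replicate) block called 1244, 0 and 1746 genes in all, and 0 between the control sets. It called 4 of the 10 genes at 2 dyne/cm2, 0 at 80 dyne/cm2 and 4 for the difference. Called genes with at least 2-fold change at 2 and at 80 dyne/cm2 numbered 1078 and 246 with the block, and 635 and 0 without it. With the spread from all 12 libraries, 4505 genes were called at 2 dyne/cm2 and 364 at 80 dyne/cm2 (125 at least 2-fold), with 7 and 0 of the 10 genes. Against the other set at 30 dyne/cm2, 26 genes were called at 80 dyne/cm2 (24 at least 2-fold) and 2568 for the difference, with 0 and 3 of the 10 genes. Against both sets, 9 of the 10 were called at 2 dyne/cm2, where 4252 of all 11451 genes tested passed. Against both sets 0 of the 10 were called at 80 dyne/cm2, where 328 genes passed (84 at least 2-fold). At 80 dyne/cm2 DESeq2 and the analysis with no filter each called 2 of the 10, AJUBA and AMOTL2, among 1150 and 1359 genes in all. Between the control sets DESeq2, no filter and filterByExpr called 476, 161 and 7 genes, with 2, 1 and 0 of the 10.

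With 1 donor left out, 1389 to 1799 genes were called at 2 dyne/cm2, 183 to 2042 at 80 dyne/cm2 (132 to 286 at least 2-fold), 1949 to 3299 for the difference and 0 to 144 between the sets. Of the 10 genes, 3 to 5 were called at 2 dyne/cm2 (3 without donor 2), 0 to 1 at 80 dyne/cm2 (0 without donor 3), 4 to 5 for the difference and 0 to 1 between the sets. The log2 fold change of TEAD1 at 2 dyne/cm2 then ran from -0.0825 to 0.189, and at 80 dyne/cm2 that of ANKRD1 from -0.319 to 0.0194, of AXL from -0.0553 to 0.165 and of GADD45B from -0.446 to 0.108. At 80 dyne/cm2 against the other set, signs turned for AJUBA (0.40), LATS2 (0.10), STK4 (0.0512), GADD45B (0.20) and FJX1 (-0.33), and against both sets for LATS2 (0.0212), GADD45B (0.0337) and FJX1 (-0.0119). The difference of FJX1 was 0.14 with the sets exchanged. The cause of these changes was not tested. Fits without a donor also have fewer libraries. The lowest count of any of the 10 genes in a library was 244. With 3 donors a difference between groups that misses the threshold is not shown to be absent.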
